A study of Citrus unshiu with 2 samples.

Results

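Cs5g34610, Cs5g34620 and Cs5g34630 are 3 neighbouring gene models on the minus strand of chromosome 5, taken by identifier from a table of 23159 genes. They were picked because they were much lower in one library than in the other, so the difference between the libraries is described here and not tested. The files describe Cs5g34610 and Cs5g34620 as glycine-rich protein 23 and Cs5g34630 as PE-PGRS family protein PE_PGRS33. PE-PGRS is a family name from Mycobacterium tuberculosis, where it marks proteins with long glycine-rich repeats. The files give no protein family domain for any of the 3.

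The light drought library came from shoots, specified as mature stems, of wild-type satsuma mandarin (Citrus unshiu) in which soil was left to dry to about 15% moisture, and the control library from the same tissue of wild-type trees given normal water. Both are labelled Day 75, from trees potted in root-limiting containers under a plastic tunnel with the natural change of day length. Each arm had 20 trees set aside, and the number that entered a library is not on the labels. There was 1 library per group, so no value below has a replicate check, and a difference between libraries cannot be told apart from a difference between the trees sampled.

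Glycine-rich proteins are a loose family in plants, joined by stretches of repeated glycine and not by common descent. Some carry a secretion signal and are laid down in the cell wall, where the best known are found in the walls of conducting tissue of stems. Others bind RNA, and many respond to water, cold or wounding. No role of its own is given in the files for any of these 3 citrus genes.

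The 3 genes were close to silent in light drought stems and were expressed at a modest level in control stems. Cs5g34610 had 0 reads in light drought and 66 in the control, an RPKM (reads scaled to gene length and to all reads in genes) of 0 against 2.60. Cs5g34620 had 2 reads in light drought and 147 in the control, an RPKM of 0.0793 against 5.63. Cs5g34630 had 2 reads in light drought and 129 in the control, an RPKM of 0.111 against 6.91. For every one of the 3, the exact 95% Poisson intervals of the RPKM in the 2 libraries lay apart, and the highest light drought bound, 0.400 for Cs5g34630, was under the lowest control bound, 2.01 for Cs5g34610. These intervals cover counting error only. As the genes were picked for this difference, the separation of the intervals is no test of it.

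**Figure D1:**
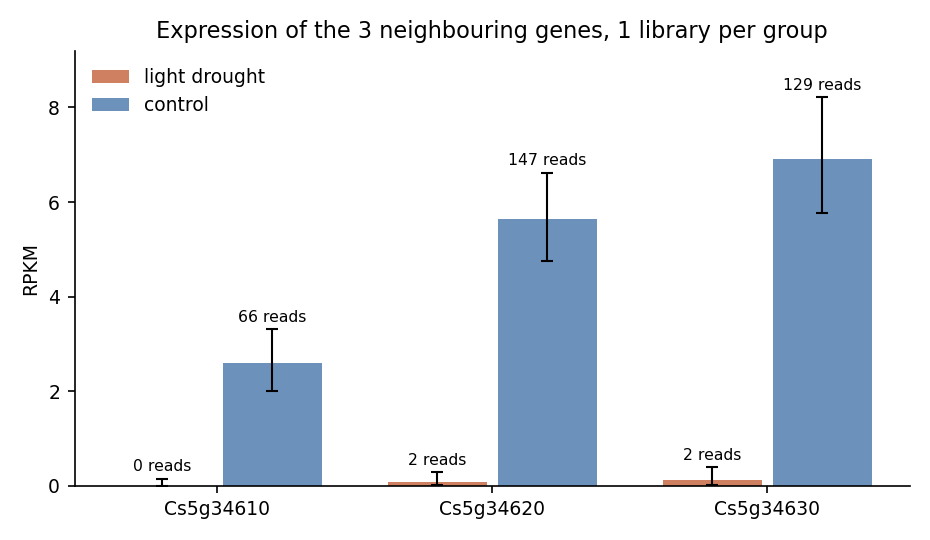
RPKM of the 3 genes in the light drought library and the control library, with exact 95% Poisson intervals of the read count and the reads written above. Light drought bars reach at most 0.111 RPKM, and control bars lie between 2.60 and 6.91 RPKM.

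Read counts set against the library totals put Cs5g34620 71.0-fold lower in light drought, with an exact 95% (Clopper-Pearson) interval of 19.3 to 592, and Cs5g34630 62.3-fold lower, with an interval of 16.9 to 520.3. Cs5g34610, with a count of 0, was at least 21.3-fold lower when 3 reads are taken as the floor, and the near end of its exact 95% interval was lower than that, at 16.8-fold. The upper ends of those intervals are wide because they rest on 2 light drought reads each. Together the genes held 4 reads in light drought and 342 in the control, which is 82.6-fold lower with an interval of 32.0 to 305. Cs5g34610 and Cs5g34620 point to 1 and the same protein record, and no other gene of the described table does. The sources used here do not give how reads matching both were assigned, so the split between these 2 models is uncertain. The sum does not depend on how such reads were divided, but it would change if they had been dropped or counted for both.

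The control library ordered the genes along the chromosome, per length. Cs5g34630 was highest, Cs5g34620 next and Cs5g34610 lowest. The upper pair could not be told apart by counting error, at a control RPKM ratio of Cs5g34630 over Cs5g34620 of 1.23 (exact 95% interval 0.961 to 1.56). Cs5g34620 stood 2.17 times above Cs5g34610 (1.61 to 2.94). That interval covers counting error only, and the uncertain split of reads between these 2 models makes their order uncertain too. No order could be read in light drought, where each count was below the floor of 3 reads. That floor corresponds to an RPKM of 0.122 for Cs5g34610, 0.119 for Cs5g34620 and 0.166 for Cs5g34630.

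These were not highly expressed genes even in watered trees. Of the 15654 genes with an RPKM of at least 1 in either library, called kept genes here, 43.2% had a lower control RPKM than Cs5g34630, 37.6% than Cs5g34620 and 18.9% than Cs5g34610. The median control RPKM of kept genes was 8.75. In the light drought library 16 kept genes had an RPKM at or below that of Cs5g34630. All 3 genes passed the minimum through the control library alone.

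On the scale log2((light drought + 0.5)/(control + 0.5)), which understates the change of low genes, the values were -2.63 for Cs5g34610, -3.40 for Cs5g34620 and -3.60 for Cs5g34630. Cs5g34630 had the most negative ratio of all kept genes, Cs5g34620 the fourth and Cs5g34610 the fifteenth. By this measure 332 of 15654 kept genes were at least 2-fold lower, 2.12%, and 138 were at least 2-fold higher, 0.882%. All 3 genes were at least 2-fold lower, from which nothing follows, since they were picked on this contrast. In bulk tissue, fewer cells of a type and less RNA per cell cannot be told apart.

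**Figure D2:**
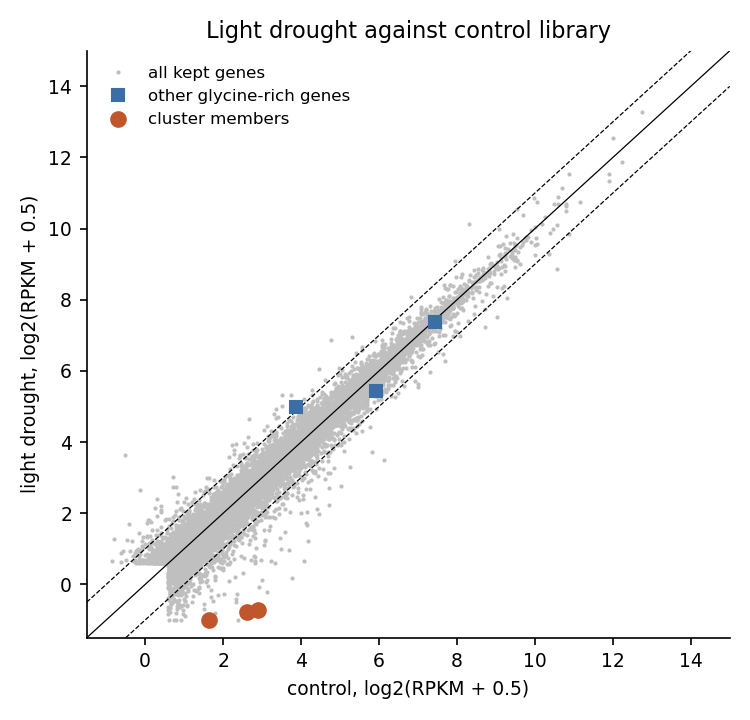
Light drought against control expression of kept genes, both as log2(RPKM + 0.5), with the line of equality and dashed lines at 2-fold. The 3 cluster members lie at the bottom edge, while the 3 other glycine-rich genes lie within or near the dashed lines, with 1 just above the upper one.

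A few other genes had a similar read pattern. Among 15069 genes with at least 50 control reads, 7 had at most 2 reads in light drought, the 3 cluster genes included. Both limits were set after the counts of the 3 genes were seen, so their place among the 7 was fixed in advance and nothing is read from it. One of the other 4 was expansin-A1 (Cs7g03630), of the proteins that loosen cell walls, with 2 reads in light drought against 85 in the control. Cytochrome P450 78A5 (Cs7g11300), of a family that promotes organ growth in Arabidopsis, had 0 reads in light drought and 70 in the control. ABC transporter C family member 10 (Cs5g02710) had 0 against 57, and Cs6g15650, which has no description, had 2 against 68. In the other direction, 1 of 14819 genes had at least 50 light drought reads and at most 2 control reads.

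The authors' deposited table calls all 3 genes lower in light drought. In the authors' deposited table Cs5g34610 has a log2 fold change of -9.02 with a false discovery rate of 4.66e-14. For Cs5g34620 the authors' deposited table gives -6.07 and 1.71e-24, and for Cs5g34630 -5.88 and 6.46e-22. Ordered by fold change, these are the second, seventh and eighth most negative of its 820 calls, the order being the reverse of that on the scale with a pseudocount. The value for Cs5g34610 is a fold against a count of 0, so its size depends on how the authors treated that 0. A statistic from 1 library a group compares these libraries and not the conditions.

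The 3 genes shared a compact structure. They were chosen as neighbours on the same strand, so their adjacency is part of the choice. Exon count and length do not come from the expression values. Cs5g34610 lies at chr5:35381017-35381788, Cs5g34620 at chr5:35382880-35383673 and Cs5g34630 at chr5:35386864-35387431, in the coordinates of the deposited table, for which the sources used here name no genome build. Each model is a single exon, of 772, 794 and 568 bases in that order. Single-exon models made up 16.5% of the table, and the median gene had 4 exons and 1692 bases. Models no longer than 794 bases were 15.9% of the table. None of the 3 overlapped another listed model.

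The models sit near each other, with longer gaps to the models on either side. The gap from Cs5g34610 to Cs5g34620 was 1091 bases and that from Cs5g34620 to Cs5g34630 was 3190 bases, so that the 3 spanned 6415 bases. Among 10148 neighbouring same-strand pairs on the placed chromosomes the median gap was 3614.5 bases. Of these gaps 21.4% were no longer than 1091 bases and 46.7% no longer than 3190 bases. The spacing was therefore ordinary for same-strand neighbours. Cs5g34570 ended 17147 bases before the first gene. On the far side Cs5g34640, itself a single-exon model of 1093 bases on the same strand, began 4594 bases after the last, and a gap of 18871 bases followed it.

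The kept flanking models did not show the loss seen in the 3 genes, and the others were too low for such a loss to be read. Of the 10 models on each side, 13 of 20 were kept and 1 was at least 2-fold apart, 7.69%, against 3.00% of all kept genes. The median log2 ratio of the 13 was -0.09, and that over all kept genes was 0.0024. The other 12 lay within 0.28 of 0. The nearest model before the cluster, Cs5g34570, which carries no description, was abundant in both libraries, with an RPKM of 244 in light drought and 253 in the control, 15354 and 16463 reads.

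Beyond the cluster, Cs5g34640 had 0 reads in light drought and 6 in the control, too few to set it beside the 3 genes. Its control RPKM was 0.167, and the upper end of its interval of the log2 read ratio was -0.19, which is below 0. Cs5g34670 had 0 reads against 1. The first well-measured model on that side, Cs5g34680, had an RPKM of 3.17 in light drought and 2.68 in the control, with an interval of the log2 read ratio of -0.01 to 0.49. It overlaps Cs5g34690 on the opposite strand, at 2.93 against 2.51 RPKM, and reads of the 2 cannot be told apart if strand was not used.

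The exception among the 20 was Cs5g34700, described as the putative kinase-like protein TMKL1, a member of the receptor-like kinase class with leucine-rich repeats. It had 330 reads in light drought and 785 in the control, an RPKM of 2.85 against 6.55 and a log2 ratio of -1.07, with an interval of the log2 read ratio of -1.39 to -1.01. It lies 5 models beyond the cluster, at chr5:35437438-35442594, on the plus strand, and the authors' deposited table gives it a log2 fold change of -1.20. Its end overlaps Cs5g34710 on the minus strand, which had 3 reads in light drought and 1 in the control. With a pseudocount of 1 RPKM it was no longer 2-fold apart.

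**Figure D3:**
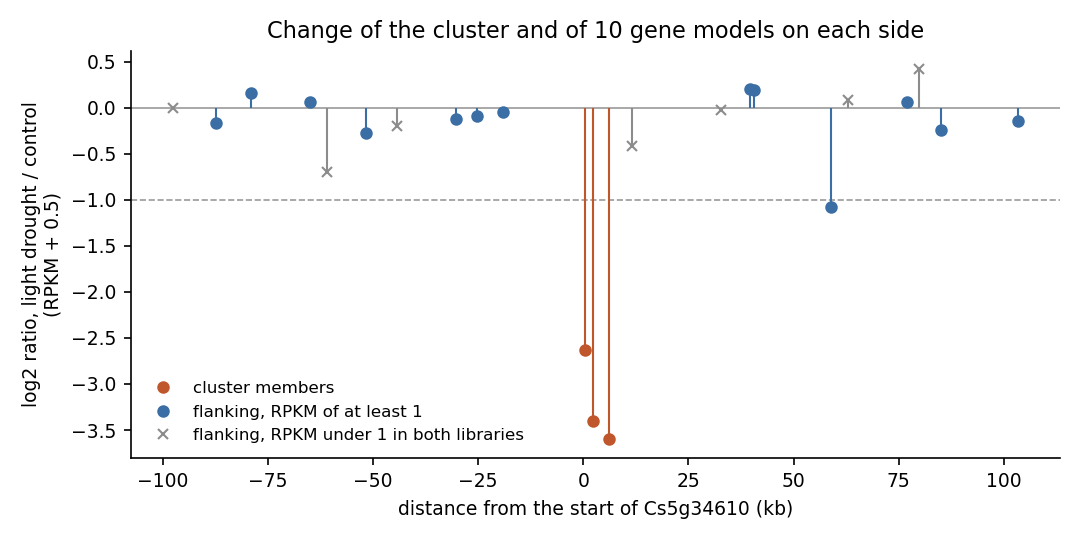
Log2 ratio of light drought over control, on RPKM + 0.5, for the 3 cluster members and 10 gene models on each side, against the distance in kb from the start of Cs5g34610. The dashed line marks 2-fold lower, which the 3 members (-2.63 to -3.60) and Cs5g34700 (-1.07) pass, and crosses are models with an RPKM under 1 in both libraries.

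The placed chromosomes held 2015 runs of 3 neighbouring kept models on 1 strand, overlapping runs included. The run of Cs5g34610, Cs5g34620 and Cs5g34630 was the 1 with all 3 at least 2-fold lower, and 0 had all 3 at least 2-fold higher. The entry of the cluster in this count was fixed by its choice as neighbours that are lower in light drought, so the count describes the other runs and is no evidence about the 3 genes. Without regard to strand there were 7268 such runs, and the count was again 1 lower and 0 higher. Runs of 3 same-strand single-exon models, kept or not, numbered 92, of which 15 had all 3 kept. Among kept single-exon genes 3.97% were at least 2-fold lower and 1.77% at least 2-fold higher.

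Neighbours that share a protein record, as Cs5g34610 and Cs5g34620 do, formed 12 pairs in the described table, 9 with both members kept. The cluster pair, picked for being lower, had both members at least 2-fold lower, and 0 of the 9 had both at least 2-fold higher. Ratios in the other kept pairs differed in size and sign from pair to pair. Within a pair both lay on the same side of 0, except for Cs8g19070 and Cs8g19105, at 0.35 and -0.22. The choline transporter genes Cs1g07030 and Cs1g07040 had -0.54 and -0.87. The zingipain-2 genes Cs2g27800 and Cs2g27810, named for a cysteine protease of ginger, had -0.37 and -0.51. The receptor-like kinase genes Cs7g21480 and Cs7g21490 had 1.03, which is past 2-fold, and 0.49. Among pairs with a member that was not kept, the alcohol dehydrogenase 1 gene Cs3g20810 reached -1.17, next to 0.17 for Cs3g20800.

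Other genes described as glycine-rich kept high levels in both libraries. A search of the descriptions found 5, of which Cs5g34610 and Cs5g34620 are 2, while Cs5g34630 lacks the words. A neighbouring same-strand pair on chromosome 2, both described as glycine-rich protein A3, sits 1734 bases apart. Cs2g15260 had an RPKM of 42.9 in light drought and 59.8 in the control, a log2 ratio of -0.47. Cs2g15270 had 167 in light drought and 173 in the control, a log2 ratio of -0.05, with an interval of the log2 read ratio of -0.11 to 0.01. This second pair of glycine-rich neighbours was therefore within 2-fold, at far higher levels than the cluster.

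The remaining gene, Cs4g02460, described as alanine and glycine-rich protein, was higher in light drought, at an RPKM of 31.0 against 14.2 and a log2 ratio of 1.10. Its interval of the log2 read ratio was 0.97 to 1.29, and the authors' deposited table gives 1.13. Like the cluster genes it is a single-exon model, of 1000 bases. Of the 3 glycine-rich genes outside the cluster, 1 was thus at least 2-fold higher and 0 were at least 2-fold lower. Among the 1182 kept genes with a description 15.8% were at least 2-fold lower and 5.58% higher, with a median log2 ratio of -0.25. Genes outside the described table, which the authors name as that of their differential genes, could not enter this family list.

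Of genes described as wall proteins, 3 were at least 2-fold lower. The list of proline-rich proteins, extensins and arabinogalactan proteins held 13 described genes, 10 of them kept. These families are classed as structural wall proteins, as are some glycine-rich proteins. Whether the 3 cluster genes encode wall proteins was not tested. The 3 of 10 stand beside 15.8% of kept genes with a description and 2.12% of all kept genes. All 10 ratios were below 0, from -0.14 for fasciclin-like arabinogalactan protein 11 (Cs6g04310), whose interval of the log2 read ratio was -0.83 to 0.42, and the median was -0.81. The list can hold described genes only, whose median was already -0.25, and no test of the group was made. Fasciclin-like arabinogalactan protein 17 (Cs7g23810), of a wall and membrane glycoprotein family, had an RPKM of 1.08 in light drought and 3.57 in the control (log2 ratio -1.36). Basic salivary proline-rich protein 1 (Cs6g20210), an annotation borrowed from animals, had 0.333 against 1.38 (-1.17). Pollen-specific leucine-rich repeat extensin-like protein 1 (Cs1g17860) had 2.91 against 6.99 (-1.13).

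The fourth by size, arabinogalactan peptide 14 (Cs9g03160), stood at 0.509 in light drought against 1.48 in the control (-0.97). The most abundant of the list, an extensin (Cs6g11570), a rod-like wall protein, stood at 1013 against 1421 (-0.49). No gene of the list came near the ratios of the 3 cluster genes. Matching was by words alone, and 1 of the 13 is a receptor kinase by its description. After rescaling to equal sums of RPKM, 5 genes of this list were at least 2-fold apart.

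**Figure D4:**
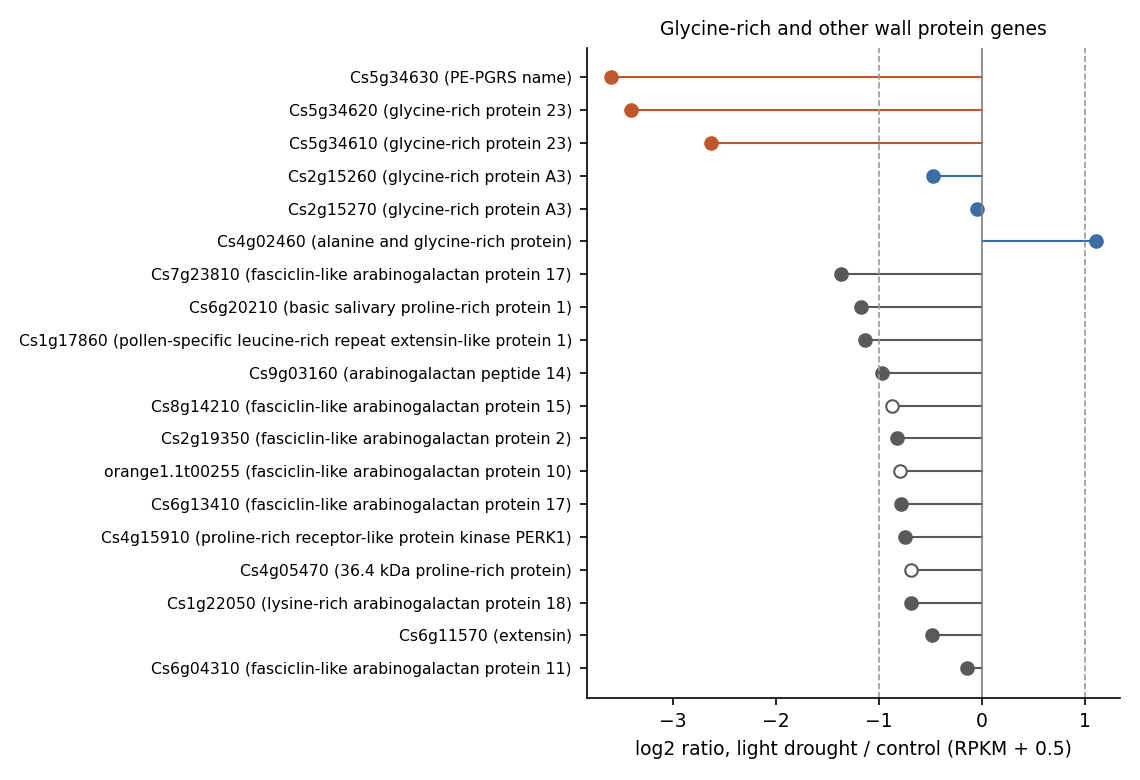
Log2 ratio of light drought over control, on RPKM + 0.5, for the cluster members (top 3), the other described glycine-rich genes (next 3) and 13 genes described as wall proteins. Dashed lines mark 2-fold, and open circles mark genes with an RPKM under 1 in both libraries. Cluster members lie at -2.63 to -3.60, the genes described as wall proteins at -0.14 to -1.36, and Cs4g02460 lies above the line for 2-fold higher, at 1.10.

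The genes nearest to each cluster gene in level and ratio were found by the distance between points (log2 control RPKM, log2 light drought RPKM, each + 0.5), over the 2 libraries. For Cs5g34620 and Cs5g34630 they included each other, at a distance of 0.28, which was the shortest for either gene. Cs5g34610 was nearest to the transporter gene NRT1/PTR FAMILY 7.2 (Cs1g02690), at a distance of 0.26, with an RPKM of 0.0734 in light drought and 2.98 in the control. Next came MYB41 (Cs1g06220), named for a transcription factor of barrier lipids in Arabidopsis, at 0.121 against 2.36 RPKM. A thaumatin-like protein (orange1.1t00072), of a plant defence family, JINGUBANG (Cs5g06530), whose namesake acts in pollen germination in Arabidopsis, and expansin-A1 followed.

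B-box zinc finger protein 18 (Cs1g25030), of a family of light-signalling factors, was among the 5 nearest genes to both Cs5g34620 and Cs5g34630, at 0.206 RPKM in light drought against 4.51 in the control. So was orange1.1t05165, which has no description, at 0 against 4.76 RPKM. With 2 libraries, such likeness says only that the genes had similar levels in both.

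The libraries held 31760704 reads in genes for light drought and 32856618 for the control, so depth was similar. Genes at 0 numbered 2087 and 1727 in the same order. Marker lists were matched by description in the described table, which is named as that of differential genes. No listed marker was at 0 in either library. A gene silent in both could hardly enter that table, so this is no check of the tissue. The floral gene AGL6 (orange1.1t00275) had 2 reads in light drought, below the floor of 3. Summed RPKM in light drought and in the control was 24.8 and 45.5 for 7 xylem and secondary wall genes, 10.8 and 11.2 for 6 phloem genes, and 744 and 508 for 22 green cortex genes. It was 112 and 213 for 5 epidermis and cuticle genes, 17.9 and 8.61 for 3 genes of the root list, all of them CASP-like.

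Of the marker lists, the share of genes at least 2-fold lower is to be read beside 15.8% of kept genes with a description (5.58% higher) and 2.12% of all kept genes (0.882% higher). Of 8 kept meristem and young organ genes, 4 were at least 2-fold lower and 0 higher, with a summed RPKM of 15.3 in light drought and 30.7 in the control. Among them, the knotted-1-like 1 homeobox gene (Cs3g15150), of a class that maintains shoot meristems, stood at 2.50 against 6.02 RPKM, a log2 ratio of -1.12. WUSCHEL-related homeobox 4 (Cs3g23280), which acts in the cambium in Arabidopsis, did not pass 2-fold, at 4.24 against 8.09 RPKM. LOB domain-containing protein 1 (Cs7g27640) lay on the other side of 0, at 1.12 against 0.663 RPKM and a log2 ratio of 0.47. The floral list took any description with MADS-box and is not limited to floral identity genes. Of its 5 genes 4 were kept, 2 of those were at least 2-fold lower and 0 higher, and the sum was 5.43 against 7.82. The epidermis list had 2 lower and 1 higher of 5 kept. The xylem list, 6 of whose 7 genes also stand in the wall protein list, had 1 lower of 5 kept. The phloem list had 1 higher of 5 kept, the green cortex list 1 higher of 22 and the root list 1 higher of 3. The phloem, green cortex and root lists had no gene at least 2-fold lower. All 22 green cortex genes had a log2 ratio above 0, with a median of 0.58, against -0.25 over kept genes with a description. The part of such differences in tissue makeup in the values of the 3 cluster genes was not tested.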

How the data were processed

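Per the labels' protocols, RNA taken with TRIzol (2 µg) entered a stranded mRNA library kit, and the submitters' processing notes list Trimmomatic 0.36. Aligner, counter, genome build and strand use were not given in the sources used here. The authors deposited RPKM for 23159 genes, and a second table of 2568 genes with descriptions, named as that of all differential genes. How those 2568 were chosen was not given in the sources used here. The family, wall and marker lists, and the shares of kept genes with a description, come from this preselected set. They are no survey of a family or tissue. For 820 of the 2568 the authors deposited a log2 fold change, p-value and false discovery rate. Their test was not given in the sources used here either.

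Whole reads, to within 0.01, were recovered from RPKM and gene length for 100% of nonzero values. Kept genes had an RPKM of at least 1 in either library, the pseudocount was 0.5, and the threshold 2-fold. Intervals and the floor of 3 reads cover counting error only, since reads are not independent molecules. With 1 library per group no test was made.

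The members and lists were chosen with earlier results of these data known. Named were the members, the 10 models on each side, all glycine-rich genes and up to 4 genes of the wall protein list. Up to 2 of each marker list by control RPKM and the 5 genes nearest to each member were also named. Genes nearly absent from light drought and neighbours sharing a protein record were named after their values were seen. The same holds for the extensin, Cs6g04310, AGL6 and LOB domain-containing protein 1. Alternatives were other pseudocounts, minimums, thresholds, scalings and a wider flank. A reference table matched 0 of the identifiers and no sequence is shown. The call rule was tested on simulated data. Work was done in Python 3.11.15 with scipy 1.17.1, numpy 2.4.6, matplotlib 3.10.9 and pandas 2.3.3.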

Additional observations from a re-analysis of the deposited data

How the results depend on the processing

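No paired analysis was possible because there is 1 library per group, which also means that none could be left out. All 3 genes stayed lower in light drought under every alternative run. Of 15 alternative ratios, 6 were counted as the same as the main ratio and 9 as moved. The 9 are given next. For Cs5g34610, Cs5g34620 and Cs5g34630 in turn, the log2 ratios were -4.76, -5.00 and -5.06 with a pseudocount of 0.1, and -1.85, -2.62 and -2.83 with one of 1, by construction. Rescaled to equal sums of RPKM they were -3.16, -3.88 and -4.05, since this raises all values against the pseudocount. Genes at least 2-fold apart numbered 470 (332 lower) and became 292 (204 lower) with a pseudocount of 1, 227 (159 lower) with a minimum RPKM of 5, 1596 (965 lower) at 1.5-fold and 52 (44 lower) at 4-fold. Rescaling gave 513 lower. The flanking count of 1 became 0 with a pseudocount of 1 and at 4-fold. The count of 3 genes of the wall protein list became 5 with rescaling, 1 with a minimum RPKM of 5, 8 at 1.5-fold and 0 at 4-fold. The count of 3 glycine-rich genes (2 lower, 1 higher) stayed within 1.5 times. No description named RNA binding, so leaving such genes out removed none. Depth limits the light drought values, which rest on 0 to 2 reads each.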
